A study of Mus musculus with 6 samples.

Results

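Processed pseudogenes are copies of spliced messenger RNAs that were reverse-transcribed and inserted back into the genome. They usually lack the introns and the promoter of the gene they came from, and those of abundant housekeeping transcripts, such as ribosomal protein mRNAs, are the most numerous in mammals. Because a copy can sit in an intron of an unrelated gene, reads over it can come from the copy, from the gene around it or from the parent gene whose sequence it repeats. Mettl3 is the enzyme of the nuclear complex that writes N6-methyladenosine into RNA.

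The transcripts described here are the 835 rows of the deposited table that GENCODE release M21 types as processed pseudogene (789 rows) or transcribed processed pseudogene (46 rows), of 68473 transcripts in all. Each of the 835 belongs to a gene of its own. The release annotates 10244 transcripts of these types, so 8.15% of them had a row. The table held 6 libraries, made by mNET-seq in embryonic stem cells of the mouse strain C57BL/6: 2 of a first Mettl3 knockout (KO1), 2 of a second (KO2) and 2 of control cells. All the cells were grown with leukaemia inhibitory factor, 3 µM CHIR99021 (an inhibitor of glycogen synthase kinase) and 1 µM PD0325901 (an inhibitor of MEK), and the labels give no further detail of the alleles, or of whether each knockout is a single clone. The labels do not say whether the paired libraries of a group came from separate cultures, so a p-value here covers the spread between libraries, which may be technical.

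In mNET-seq, chromatin is digested with micrococcal nuclease, RNA polymerase II is immunoprecipitated and the RNA it protects is sequenced, here fragments of 35 to 100 nt. The deposited value is the authors' escaping index, a log2 ratio between windows of a transcript. Where those windows lie is not given in the sources used here. An index of 0 is a ratio of about 1, and the index is higher in longer transcripts. It is a ratio within a transcript, so it is no measure of how abundant an RNA is or of how much polymerase it carries, and the read depth behind it is unknown. For the same reason the mean index over the 15 rows of Mettl3, which was 0.64 and 0.78 in KO1, 0.29 and 0.46 in KO2, and 0.68 and 0.56 in control, does not check its loss. Of the stem cell markers searched for, 8 of 8 had a row, as did 4 of 6 fibroblast markers and 1 of 4 primitive endoderm markers. A row does not show how much of a gene was transcribed.

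Most of these copies are close to their parents in sequence. A best-matching parent gene (at least 50% of the copy aligned at 80% identity or more) was found for 780 of 835, and these had 471 different parents, with a median identity of 96.6%. Sequence from the annotated transcripts (mm10, GENCODE M21) is shown for 6 of the copies described below, each above the same stretch of its parent's coding sequence, because it shows how much of a short fragment can tell the copy from the parent. Capitals mark the bases that differ. The copies are Gm5511 (chr19:11438031-11438120, plus strand), Gm4972 (chr7:105413883-105413972, minus strand), Gm12583 (chr3:37108174-37108263, plus strand), Gm11263 (chr4:79327708-79327797, plus strand), Gm14373 (chrX:5701795-5701884, minus strand) and Gm13359 (chr2:26722992-26723081, minus strand).
Gm5511: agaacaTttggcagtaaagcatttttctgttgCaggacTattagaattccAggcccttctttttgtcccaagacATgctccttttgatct
Hsp90aa1: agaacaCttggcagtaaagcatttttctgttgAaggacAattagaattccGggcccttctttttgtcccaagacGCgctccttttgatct
Gm4972: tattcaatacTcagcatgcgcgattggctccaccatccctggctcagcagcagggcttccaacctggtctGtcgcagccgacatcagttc
Prrc2c: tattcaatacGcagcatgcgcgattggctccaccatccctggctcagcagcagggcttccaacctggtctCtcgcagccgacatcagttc
Gm12583: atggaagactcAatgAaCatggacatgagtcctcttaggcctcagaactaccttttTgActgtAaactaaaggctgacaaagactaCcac
Npm1: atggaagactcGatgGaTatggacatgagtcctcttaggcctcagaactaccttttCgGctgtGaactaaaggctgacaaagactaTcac
Gm11263: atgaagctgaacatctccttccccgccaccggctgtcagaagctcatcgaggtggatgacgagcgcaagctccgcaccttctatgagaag
Rps6: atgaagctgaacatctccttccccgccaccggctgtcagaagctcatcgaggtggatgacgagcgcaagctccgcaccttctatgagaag
Gm14373: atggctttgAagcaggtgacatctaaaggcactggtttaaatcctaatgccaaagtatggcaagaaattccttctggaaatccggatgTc
Larp4: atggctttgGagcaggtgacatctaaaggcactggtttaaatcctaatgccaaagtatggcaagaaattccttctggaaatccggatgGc
Gm13359: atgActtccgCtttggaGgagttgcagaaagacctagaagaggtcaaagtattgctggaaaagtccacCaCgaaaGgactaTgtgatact
Cacybp: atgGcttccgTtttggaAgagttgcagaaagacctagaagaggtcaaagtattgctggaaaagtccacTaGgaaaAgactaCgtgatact

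Over these 90 bases Gm11263 and Rps6 did not differ, Gm4972 and Gm14373 each differed from their parents at 2 positions, Gm5511 at 6, and Gm12583 and Gm13359 at 7. Across all 835 copies, a median of 51.3% of the stretches of 35 bases (the shortest fragment sequenced) also occurred in an annotated transcript of another gene. Every such stretch was shared in 33 copies, none in another 33, and at least 90% in 109. At 100 bases, the longest fragment, the median was 10.5%, with 31 copies wholly shared and 208 sharing none. How reads that match several places were treated is not stated, so the part that parent reads have in each value was not tested.

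The escaping index of processed pseudogenes was low and close to a ratio of 1 in all 6 libraries. Its median was 0.32 and 0.32 in KO1, 0.14 and 0.15 in KO2, and 0.28 and 0.27 in control. Over all transcripts the medians were 3.02 and 3.01 in KO1, 2.90 and 2.91 in KO2, and 3.23 and 3.24 in control. On the linear scale the median ratio of the copies lay between 1.10 and 1.25 in the 6 libraries, and that of protein-coding transcripts between 13.9 and 18.9. The ratio was below 1 in 42.3% to 45.9% of the copies, depending on the library, and in 12.4% to 14.3% of all transcripts. The 46 transcribed processed pseudogenes had medians of -0.06 and -0.14 in KO1, -0.30 and -0.47 in KO2, and 0.01 and -0.14 in control.

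**Figure D1:**
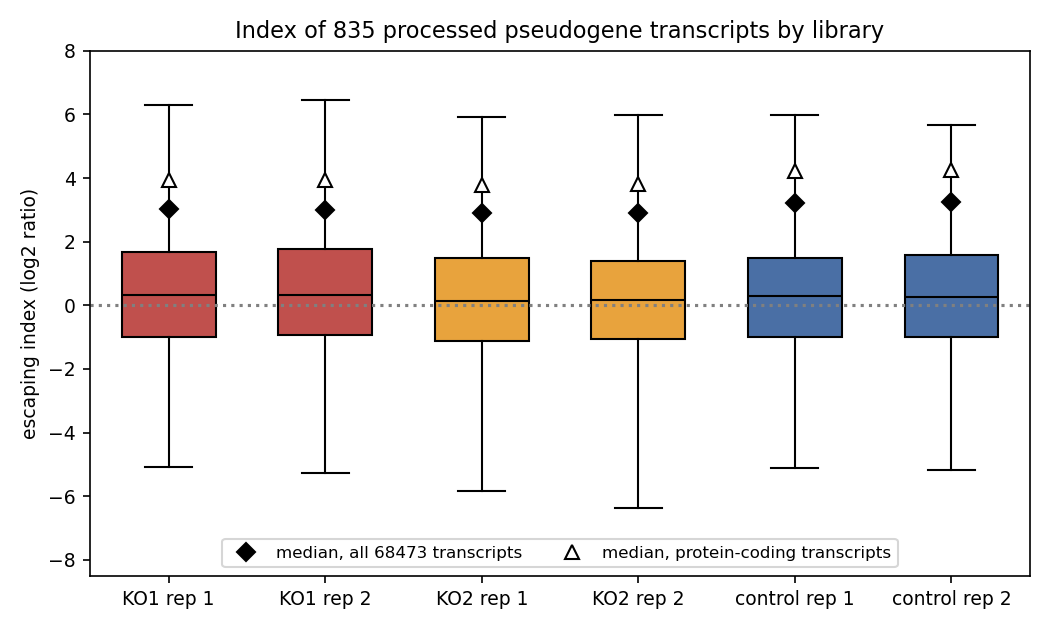
Escaping index (log2 ratio) of the 835 processed pseudogene transcripts in each library, with boxes for quartiles, whiskers to the lowest and highest copy, diamonds for the median of all 68473 transcripts and triangles for that of protein-coding transcripts. The 6 boxes overlap almost wholly, and their medians, between 0.14 and 0.32, lie near the dotted line of a ratio of 1 and well below the diamonds.

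The copies are short, and length goes with the index throughout the table. Their median span was 1049 bases, 743 of 835 had a single exon, and protein-coding transcripts had a median span of 18800 bases. Across the copies the mean index and the span had a Spearman rho of 0.56 (n = 835, a description, since copies share libraries), and across all transcripts the rho was 0.81. At equal span, the copies stood higher than other transcripts. For spans of 751 to 1000 bases, the medians of the copies were -0.38 and -0.39 in KO1, -0.61 and -0.56 in KO2, and -0.36 and -0.41 in control. Other transcripts of that span had medians of -1.58 and -1.54 in KO1, -1.65 and -1.69 in KO2, and -1.49 and -1.46 in control. For spans of 1501 to 3000 bases the copies had medians of 1.45 to 1.81 over the 6 libraries, and other transcripts 0.37 to 0.58.

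The range from copy to copy was wide. Among copies none of whose ratios was a quotient of small whole numbers, the highest mean control index belonged to AC154486.3, Smarca5-ps and Gm9403. Smarca5-ps, a copy of the gene for the chromatin remodelling ATPase Smarca5, had an index of 4.60 and 5.17 in KO1, 5.09 and 4.59 in KO2, and 5.14 and 5.58 in control. Gm9403 had 6.02 and 5.38 in KO1, 5.44 and 5.13 in KO2, and 5.53 and 5.66 in control. The lowest were Gm36501, Gm9396 (a copy of the ribosomal protein gene Rpl12) and Gm16580. Gm16580, a copy of the poly(A)-binding protein gene Pabpc1 inside Luc7l, had -5.07 and -4.78 in KO1, -4.77 and -5.16 in KO2, and -4.73 and -4.63 in control. KO2 lay below control in all of these 3 and KO1 in Gm16580, each by less than 1 unit and with no difference past the test.

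Many of the values were quotients of small whole numbers. After the small offset in the log was removed, 505 of 835 copies (60.5%) had, in at least 1 library, a ratio equal within 1e-09 to a quotient with numerator and denominator up to 10. Over all transcripts that share was 8.98%, and over protein-coding transcripts 4.29%. A ratio over 10 or under 1/10 cannot be such a quotient, so these shares depend on the level of the index. The values of Smarca5-ps, Gm9403 and Gm16580 above could not be flagged either. At a mean index of -1 to 2, the share was 69.6% in the copies and 19.7% in other transcripts. Such values were found in 1 or 2 libraries for 309 copies, in 3 to 5 for 163 and in all 6 for 33. In all, 1231 of 5010 values of the copies were simple quotients, and 105 of those were exactly 1. The copies made up 1.22% of the rows but 12.1% of the simple quotients in the table. Within the copies they were most frequent in KO2, with 186 and 184 in KO1, 226 and 232 in KO2, and 199 and 204 in control. Over all transcripts they were not, with 1744 and 1658 in KO1, 1674 and 1557 in KO2, and 1751 and 1770 in control.

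The excess held at equal span. Of copies with a span up to 1500 bases, 64.2% had a simple quotient, against 29.4% of other transcripts and 25.7% of protein-coding transcripts of that span. Replicate libraries also differed more in the copies. The median absolute difference between the libraries of a group was 0.51 in the copies and 0.31 over all transcripts, and it was 0.60 in copies with a simple quotient and 0.38 in the 330 copies without. Pearson's r between replicate libraries across the copies was 0.937 in KO1, 0.916 in KO2 and 0.920 in control, where all transcripts gave 0.978 to 0.979. At spans up to 1500 bases most of this contrast was gone. The median replicate difference there was 0.51 in the copies and 0.42 in other transcripts. In the copies of that span r was 0.926 in KO1, 0.901 in KO2 and 0.903 in control. Other transcripts of that span had 0.917 in KO1, 0.917 in KO2 and 0.922 in control. Copies with more shared sequence had fewer simple quotients: 72.1% of those with up to 25% of their 35-base stretches shared, 65.0% and 56.8% in the next classes, and 50.0% of those with 75% or more.

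**Figure D2:**
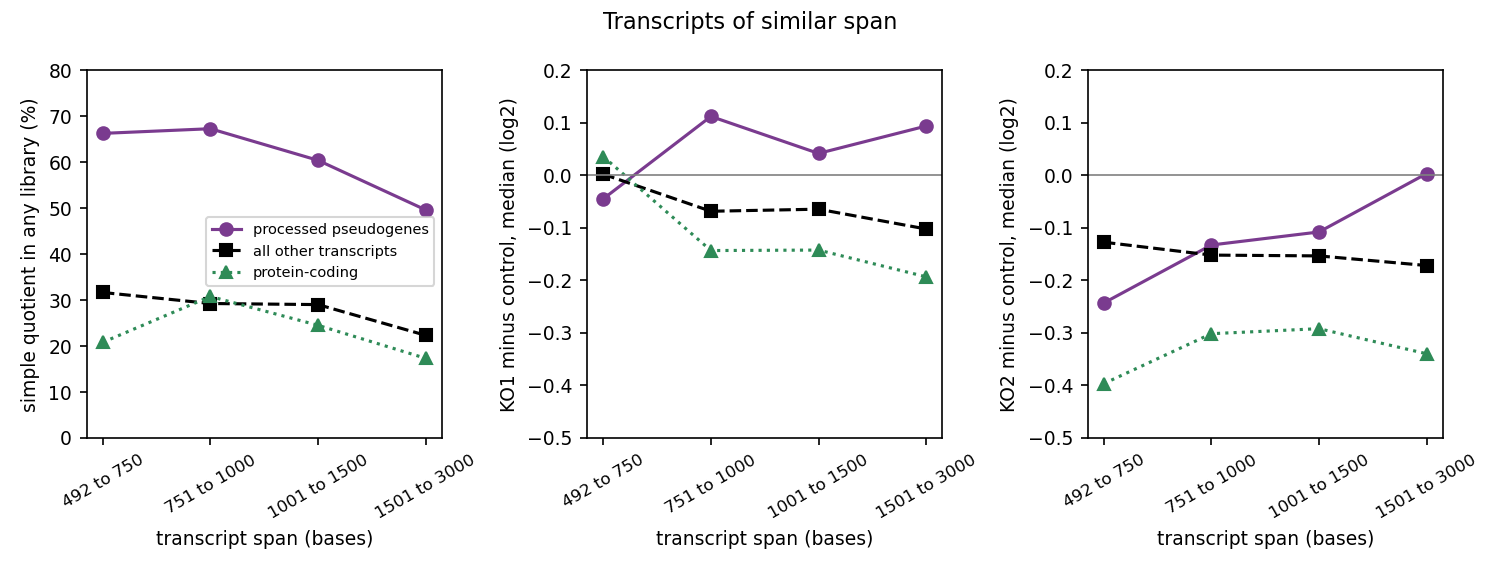
Processed pseudogenes, all other transcripts and protein-coding transcripts by transcript span in bases, with the percentage that had a simple quotient in any library (left) and the median difference of the index (log2) for KO1 minus control (centre) and KO2 minus control (right). The copies had more simple quotients than both other sets in every span class, and their medians lay above those of other transcripts in all spans over 750 bases for KO1 and KO2, and below them in spans of 492 to 750 bases.

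The index was lowest in copies that lay inside another gene on its strand. The span of 258 copies lay wholly inside another gene, 134 on the host's strand and 124 on the opposite strand. Of these 258, 232 lay in an intron and 26 overlapped a host exon. A further 25 overlapped another gene in part, and 552 lay apart. Copies on the strand of their host had medians of -1.15 and -1.05 in KO1, -1.12 and -0.95 in KO2, and -1.05 and -0.97 in control, which is a ratio of about 0.5. Copies on the opposite strand had 0.71 and 0.79 in KO1, 0.43 and 0.44 in KO2, and 0.72 and 0.61 in control. Copies apart from other genes had 0.43 and 0.44 in KO1, 0.24 and 0.24 in KO2, and 0.36 and 0.39 in control. The same-strand medians were below those of the other classes in each of the 6 libraries, and median spans were alike, at 1045 bases on the same strand, 1014 on the opposite strand and 1053 apart.

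The 25 partly overlapping copies had the highest medians, 2.22 and 1.52 in KO1, 1.47 and 1.59 in KO2, and 1.39 and 1.97 in control. Of the copies apart, 33 started within 5 kb after the end of a protein-coding gene on the same strand. Their medians were 0.00 and -0.17 in KO1, -0.47 and -0.38 in KO2, and -0.03 and -0.28 in control, against 0.26 to 0.50 over the libraries for the other 519. Simple quotients were found in 47.0% of same-strand copies, 61.3% of opposite-strand copies, 60.0% of partly overlapping copies and 63.6% of those apart. The part that reads of the host gene have in these levels was not tested, and whether counting used strand is not stated.

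**Figure D3:**
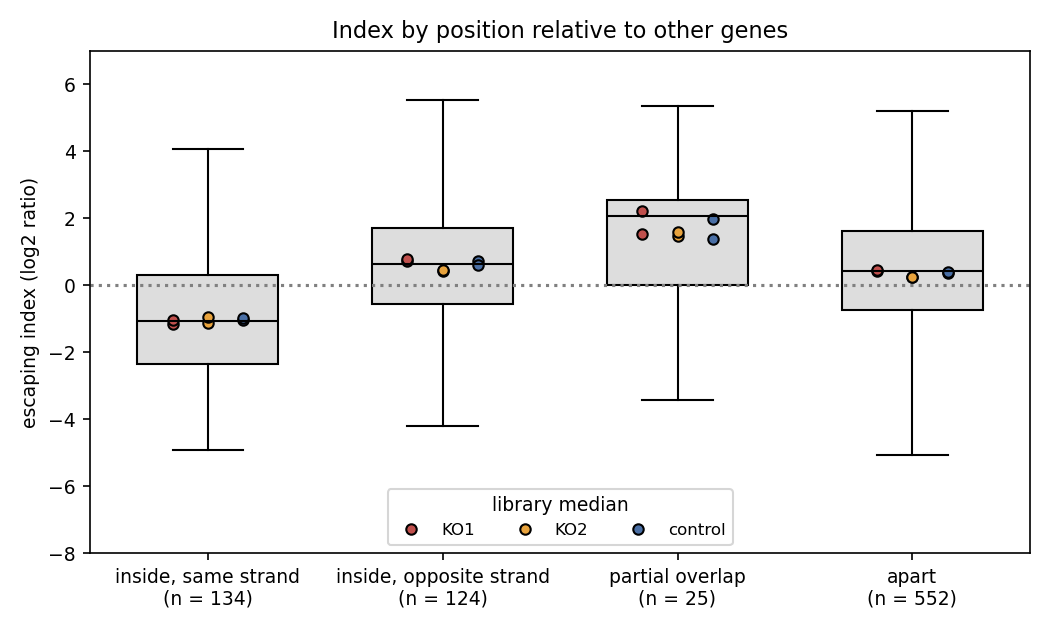
Escaping index (log2 ratio) by position relative to other genes: boxes show the quartiles and whiskers the range of the copies' means over the 6 libraries, and points show the median of each library. The library medians of copies inside a host on the same strand lie near -1, and those of the other classes all lie above 0.

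The hosts themselves had a much higher index than the copies in them. The spans of hosts and copies were not matched here, and the index is higher in longer transcripts. A host row was in the table for 106 of the 134 same-strand copies. The median host index was 4.58 in KO1, 4.34 in KO2 and 4.70 in control, where their copies had -1.28 in KO1, -1.28 in KO2 and -1.22 in control. The median differences from control of the same hosts were -0.16 in KO1 and -0.32 in KO2, and those of the copies 0.05 in KO1 and -0.05 in KO2. Copies and hosts lay on the same side of control in 54 of 106 cases in KO1 and 57 in KO2. Across these pairs, the differences of copy and host had a Pearson's r of 0.06 in KO1 and 0.12 in KO2 (n = 106, a description, since both come from the same libraries).

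In the values as deposited, the median differences of the knockouts from control lay nearer 0 in processed pseudogenes than in the table as a whole. Over all transcripts the median difference from control was -0.21 in KO1 and -0.32 in KO2, with 65.7% of transcripts lower in KO1 and 71.4% in KO2. In the copies it was 0.05 in KO1, with 385 of 835 (46.1%) lower, and -0.10 in KO2, with 469 (56.2%) lower. When each library was centred on its median over all transcripts, the copies had medians of 0.28 in KO1 and 0.23 in KO2, so the direction in KO2 turned. The medians over all transcripts were then 0.014 in KO1 and 0.008 in KO2, so after centring the copies lay farther from 0. The KO1 and KO2 comparisons use the same control libraries. As deposited, other short transcripts also had smaller differences. With a span up to 1500 bases, the medians for KO1 were 0.04 in the copies, -0.06 in other transcripts and -0.12 in protein-coding transcripts. For KO2 they were -0.14 in the copies, -0.15 in other transcripts and -0.30 in protein-coding transcripts. Within span classes the copies and other transcripts differed by more in places. For spans of 1501 to 3000 bases the KO1 medians were 0.09 in the copies and -0.10 in other transcripts, and the KO2 medians 0.0036 in the copies and -0.17 in other transcripts. For spans of 492 to 750 bases the KO2 medians lay the other way, at -0.24 in the copies and -0.13 in other transcripts. At an unadjusted p under 0.05, 12.2% of copies up to 1500 bases were higher in KO1, against 5.79% of other transcripts of that span.

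Both KO1 libraries lay above both control libraries for 227 copies (27.2%, where 14.7% of all transcripts did) and below them for 178 (21.3%, against 41.1% of all). Both KO2 libraries lay above control for 132 copies (15.8%, against 11.7% of all) and below for 237 (28.4%, against 49.0% of all). All 4 knockout libraries lay above control for 76 copies (9.10%, against 5.67% of all) and below for 105 (12.6%, against 31.6% of all). In each case the share of lower copies was under that of the table, and the share of higher copies over it. At spans up to 1500 bases the gaps to other transcripts were smaller. There KO1 lay above control for 26.5% of copies and 19.9% of other transcripts, and below for 22.7% and 27.7%. KO2 lay above for 14.9% and 16.4%, so the order turned, and below for 29.8% and 34.1%. All 4 knockout libraries lay above for 8.37% and 8.16%, and below for 13.5% and 17.7%. By position, the KO2 medians were -0.10 for same-strand copies, -0.22 for opposite-strand copies, 0.01 for partly overlapping copies and -0.08 for those apart, and all 4 were above 0 once the libraries were centred. For KO1 they were 0.03 for same-strand copies, -0.02 for opposite-strand copies, -0.03 for partly overlapping copies and 0.08 for those apart.

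The test across all 68473 transcripts (limma, two-sided, Benjamini-Hochberg adjusted p under 0.05) called no transcript in KO1, so 0% of the table, and the smallest adjusted p among the copies was 0.0692. At an unadjusted p under 0.05, 102 copies were higher and 76 lower in KO1 (12.2% and 9.10%, where the table had 4.18% and 20.1%). In KO2 the test called 27 copies (3.23%), against 10.5% of all transcripts. Of these 27, 20 were lower, where 10.0% of the table was called lower, and 7 higher, where 0.407% was. At an unadjusted p under 0.05 KO2 had 40 copies higher, 4.79% of them where the table had 3.09%, and 92 lower, where 29.0% of the table was lower. In the average of both knockouts, 31 copies were called (3.71%, against 9.04% of all), 20 lower (8.69% of all) and 11 higher (0.356% of all). Other short transcripts also had few calls. At spans up to 1500 bases, 3.81% of copies and 4.89% of other transcripts were called in KO2. In the average, 3.65% of copies and 3.23% of other transcripts of that span were called. At an unadjusted p under 0.05 the average had 75 copies higher and 82 lower (8.98% and 9.82%, where the table had 3.45% and 27.8%). After the libraries were centred, the unadjusted counts were 164 higher and 47 lower in KO1, 118 higher and 37 lower in KO2, and 162 higher and 41 lower in the average. All calls in KO2 and in the average were lost when the libraries were centred, with smallest adjusted p of 0.0894 in KO2 and 0.0813 in the average, and also in each of the 6 fits that left out a library.

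Among the copies that fell, Gm5511 had the largest difference in the average whose libraries held no simple quotient. It lies on chromosome 19, apart from other genes, and matches Hsp90aa1, which encodes the stress-inducible cytosolic form of the Hsp90 chaperone, at 97.1% identity. Its index was 0.72 and 0.64 in KO1, 2.62 and 2.35 in KO2, and 3.87 and 3.87 in control. The difference was -3.19 in KO1 (SE 0.19, limma adjusted p = 0.0692), -1.39 in KO2 (SE 0.19, adjusted p = 0.0340) and -2.29 in the average (SE 0.16, adjusted p = 0.0325). The 3 groups did not overlap, with KO1 lowest. The mean index of Hsp90aa1 itself was 2.19 in KO1, 1.92 in KO2 and 2.25 in control.

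Gm4972, a copy of part of Prrc2c on chromosome 7, had an index of 3.05 and 2.90 in KO1, 2.67 and 3.02 in KO2, and 4.72 and 4.56 in control. It fell by 1.80 in KO2 (SE 0.20, limma adjusted p = 0.0340) and by 1.73 in the average (SE 0.17, adjusted p = 0.0325). Both knockouts lay below control and overlapped each other. Prrc2c differed from control by -0.17 in KO1 and -0.08 in KO2.

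Of the 7 copies of Npm1, which encodes the nucleolar chaperone nucleophosmin, 3 were called lower in the average, where 8.69% of all transcripts were. Gm12583, in an intron of Adad1 on its strand, had -4.31 and -4.34 in KO1, -3.69 and -3.63 in KO2, and -2.52 and -2.61 in control, and fell by 1.43 in the average (SE 0.17, limma adjusted p = 0.0325). Gm9118, apart from other genes, had -1.87 and -1.70 in KO1, -1.16 and -1.45 in KO2, and -0.28 and -0.37 in control, and fell by 1.22 in the average (SE 0.19, adjusted p = 0.0336). Gm15484, on the opposite strand of its host and named after its values were seen, had -1.76 and -2.18 in KO1, -1.38 and -1.49 in KO2, and -0.86 and -0.72 in control, and fell by 0.92 in the average (adjusted p = 0.0500, just under the threshold). In all 3, KO1 lay below KO2 and KO2 below control. Of the 7 copies, 6 had a negative difference in KO1 and 4 in KO2, where 65.7% of all transcripts were negative in KO1 and 71.4% in KO2. Npm1 itself differed by 0.15 in KO1 and -0.21 in KO2.

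Gm5518, a copy of the chromatin protein gene Hmgb1, had the most negative difference in the average, with an index of 1.32 and 0.92 in KO1, -0.12 and 0.91 in KO2, and 4.17 and 2.95 in control. It fell by 3.17 in KO2 (SE 0.52, limma adjusted p = 0.0349) and by 2.81 in the average (SE 0.45, adjusted p = 0.0341). Its control libraries, like its KO2 libraries, were over 1 unit apart, and it had 1 simple quotient. Gm14125, a copy of the mitochondrial ribosomal protein gene Mrpl47, had -0.22 and 0.11 in KO1, -0.70 and -0.83 in KO2, and 0.86 and 1.00 in control, and fell by 1.70 in KO2 (SE 0.22, adjusted p = 0.0340). Its groups did not overlap.

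Rab7-ps1, a copy of the gene for the late endosomal GTPase Rab7, had -2.34 and -2.41 in KO1, -2.26 and -1.99 in KO2, and -1.04 and -0.30 in control, and fell by 1.58 in the average (SE 0.26, limma adjusted p = 0.0350). Gm15719, a copy of Bclaf1 on the opposite strand of a Napepld intron, had 1.14 and 1.18 in KO1, 1.67 and 1.73 in KO2, and 2.45 and 2.36 in control, and fell by 0.98 in the average (SE 0.15, adjusted p = 0.0336). Gm14335, a copy of the adenylate kinase gene Ak6, had -1.35 and -1.20 in KO1, -2.12 and -2.42 in KO2, and -0.86 and -1.07 in control, and fell by 1.31 in KO2 (SE 0.23, adjusted p = 0.0353).

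The named copies that rose included 7 with simple quotients in 4 or more libraries. Gm13359, a copy of the calcyclin-binding protein gene Cacybp, had 1.59 and 0.32 in KO1, 0.00 and -0.80 in KO2, and -1.99 and -1.99 in control, all 6 of them simple quotients. Its average rose by 2.26 (SE 0.42, limma adjusted p = 0.0386). Gm8778, on the opposite strand of a Clec2g intron, had 0.17 and -0.67 in KO1, 0.19 and 0.17 in KO2, and -2.16 and -1.80 in control, again all simple quotients, and rose by 2.16 in KO2 (SE 0.33, adjusted p = 0.0346). Gm10509, with simple quotients in all 6 libraries, had -1.32 and -1.32 in KO1, 0.00 and 0.59 in KO2, and -1.73 and -1.41 in control, and rose by 1.86 in KO2 (SE 0.27, adjusted p = 0.0340). Gm9083, a copy of the ribosomal protein gene Rpsa, had 5 simple quotients, Gm9299 and Gm8550 had 4 each, and Gm9727 had 4.

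Others rose without any simple quotient at the limit of 10. The knockout ratios of Gm47842 and Gm14373 were over 10, so that limit could not flag them. With numerator and denominator up to 20, Gm47842 had simple quotients in 3 libraries, Anp32b-ps1 in 1 and Gm14373 in 0. The KO1 ratios of Gm14373 were over 20 and could not be flagged there either. Gm47842 best matched Vmn2r79, at 86.8% identity, and shared 35-base stretches with 344 other genes. Gm47842, on the opposite strand of a Trdn intron on chromosome 10, had 3.91 and 3.91 in KO1, 3.62 and 3.64 in KO2, and 2.70 and 2.87 in control. It rose by 0.85 in KO2 (SE 0.17, limma adjusted p = 0.0400) and by 0.98 in the average (SE 0.14, adjusted p = 0.0331), and the groups did not overlap. Gm14373, a copy of Larp4, which encodes a protein that binds poly(A) tails, had 4.88 and 4.36 in KO1, 3.48 and 3.83 in KO2, and 2.97 and 2.96 in control. It rose by 1.17 in the average (SE 0.21, adjusted p = 0.0373), where Larp4 differed from control by -0.23 in KO1 and -0.11 in KO2. Anp32b-ps1 had -0.07 and -0.19 in KO1, -1.05 and -1.30 in KO2, and -1.59 and -1.48 in control, and rose by 0.88 in the average (SE 0.18, adjusted p = 0.0446). Its parent Anp32b, a nuclear histone-binding protein gene, differed by -0.84 in KO1 and -1.16 in KO2, on the other side of control.

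**Figure D4:**
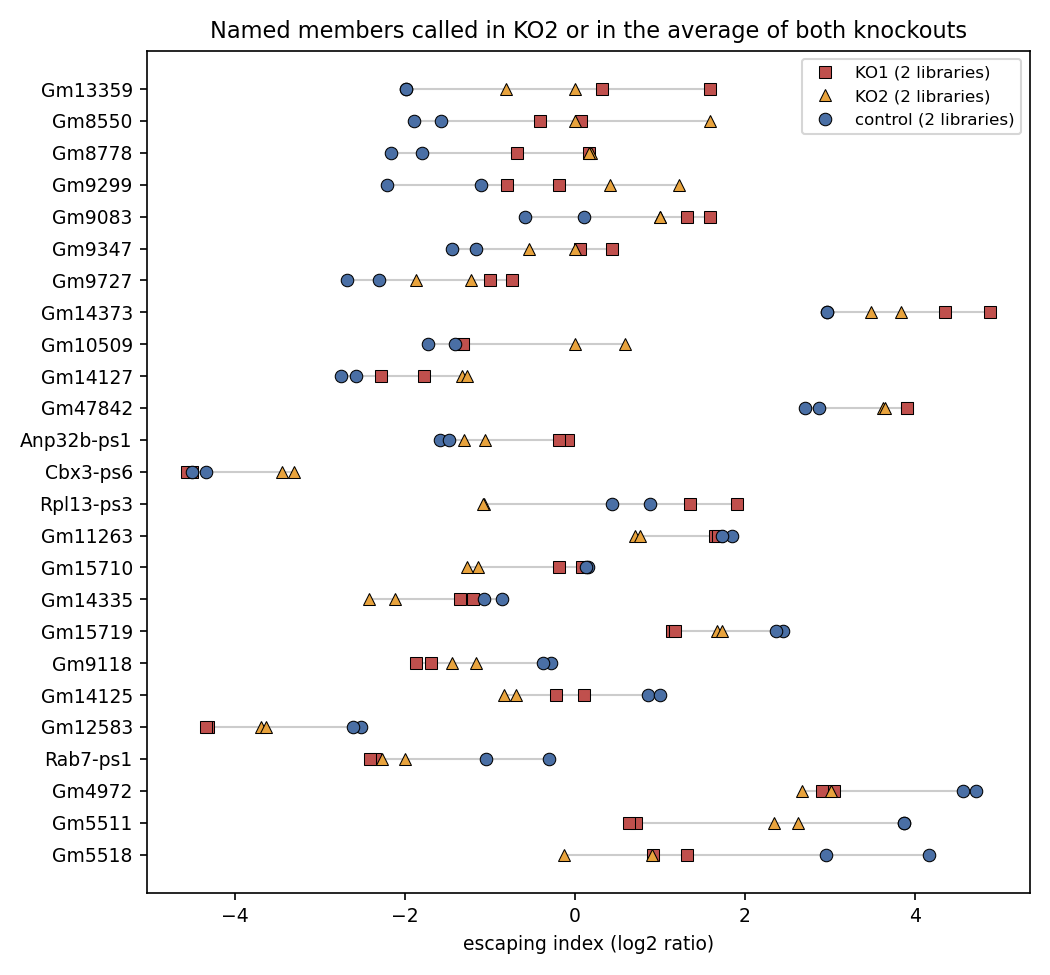
Escaping index (log2 ratio) in the 2 KO1, 2 KO2 and 2 control libraries of 25 named copies called in KO2 or in the average, in order of their difference in the average. Of these, 13 lie above 0 in that difference and 12 below. The naming rule capped the copies per contrast and direction, so this balance is not that of all called copies. Among all called copies, 11 were higher and 20 lower in the average, and 7 were higher and 20 lower in KO2. The KO2 triangles of Rpl13-ps3, Gm11263, Gm15710, Gm14335 and Gm14125, among others, lie below both other groups.

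Copies of ribosomal protein genes were the most numerous family, with 100 of the 835. In KO2, 74 of them had a negative difference, with a median of -0.40, where 71.4% of all transcripts were negative with a median of -0.32, and 7 of the 100 fell and none rose, where 10.0% of the table was called lower. In KO1, 51 were negative, with a median of -0.02, and none passed the test. Once libraries were centred, the medians were -0.07 in KO2 and 0.20 in KO1. The ribosomal protein genes they match had median differences of -0.32 in KO2 and -0.09 in KO1. The 7 that fell in KO2 were Gm11263 and Gm16409 (Rps6), Gm15710 and Rpl13-ps3 (Rpl13), Gm5905 (Rps9), Gm15539 (Rpl9) and Gm6274 (Rpl7), of which Gm16409, Gm5905 and Gm15539 were chosen after their values were seen. Gm11263 had 1.64 and 1.68 in KO1, 0.71 and 0.76 in KO2, and 1.84 and 1.73 in control, and fell by 1.05 in KO2 (SE 0.18, limma adjusted p = 0.0349), with KO2 below both other groups. Gm15710 had -0.19 and 0.08 in KO1, -1.14 and -1.27 in KO2, and 0.15 and 0.14 in control, and fell by 1.35 in KO2 (SE 0.21, adjusted p = 0.0346).

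The 10 copies of Rps6, a component of the small ribosomal subunit, were looked at in detail after their values were seen. Their identity to Rps6 was 94.4% to 100%. In KO2, 9 of 10 had a negative difference, with a median of -1.05, and the 1 exception was Gm9143 at 0.20. In KO1, 7 of 10 were negative, with a median of -0.32. Rps6 itself had a mean index over its 4 rows of 1.13 in KO1, 0.54 in KO2 and 1.48 in control, which is -0.36 in KO1 and -0.95 in KO2. Rps6-ps4, identical to Rps6 over its whole aligned length, with every 35-base stretch shared, had 1.14 and 0.83 in KO1, 0.26 and 0.64 in KO2, and 1.69 and 1.31 in control. The medians over the 10 copies stayed negative after centring, at -0.10 in KO1 and -0.72 in KO2.

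Other parents with 8 or more copies gave other pictures. All 9 copies of Eef1a1, which encodes the elongation factor that brings aminoacyl-tRNA to the ribosome, had a negative difference in KO1, with a median of -0.45, and 8 of 9 in KO2, with a median of -0.32. After centring, the KO1 median was -0.23 and the KO2 median turned to 0.01. Of the 8 copies of Pabpc4, which encodes a poly(A)-binding protein, 7 had a positive difference in KO1, with a median of 0.74, and 5 in KO2, with a median of 0.23, and Pabpc4 itself differed by -0.37 in KO1 and -0.14 in KO2. The 8 copies of Hspa8, the constitutive Hsp70 chaperone gene, all had a high index, with group means from 2.60 to 4.40 in KO1, 2.61 to 4.54 in KO2 and 2.67 to 4.85 in control. Their median differences were 0.09 in KO1 and 0.03 in KO2. The 14 copies of Hmgb1 spanned group means from -3.52 to 2.70 in KO1, -3.68 to 2.35 in KO2 and -3.45 to 3.56 in control.

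Of the 835 copies, 291 had a parent in 1 of 13 families and 544 in none. The 20 copies of glycolytic enzyme genes other than Gapdh had a median of 0.10 in KO1 and -0.39 in KO2, where 17 of 20 were negative and none passed the test, and centring took the KO2 median to -0.06. The 28 copies of hnRNP and splicing protein genes had medians of 0.31 in KO1 and 0.09 in KO2, the 30 of chaperone genes 0.31 in KO1 and -0.07 in KO2, and the 18 of actin and tubulin genes 0.19 in KO1 and 0.01 in KO2. The 28 copies of translation factor genes had medians of -0.35 in KO1 and -0.19 in KO2, and centring turned the KO2 median to 0.14. Of the 20 copies of high mobility group genes, 1 fell in KO2 (Gm5518), where 10.0% of the table was called lower, and the family median was -0.12 in KO1 and -0.37 in KO2. No copy of cyclophilin A or of a histone gene had a row among the 835.

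**Figure D5:**
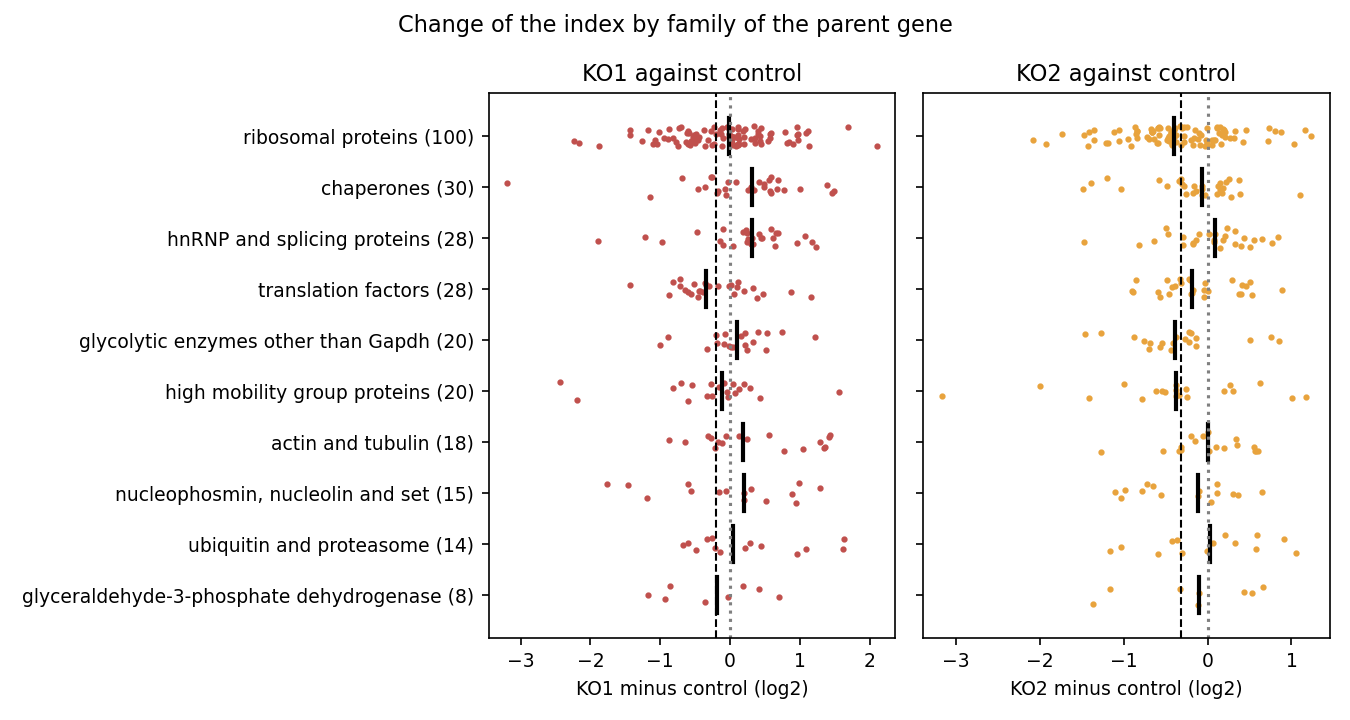
Difference of the index (log2) from control in KO1 (left) and KO2 (right) for each copy, by family of its parent gene, with the number of copies in parentheses, black bars at the family median, a dashed line at the median of all transcripts and a dotted line at 0. In KO2 the bars of ribosomal proteins and glycolytic enzymes, at -0.40 and -0.39, lie near the dashed line at -0.32, and those of hnRNP and splicing proteins lie above 0.

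The differences of copies and of their parents had little relation over the 765 copies whose parent had a row. Pearson's r between the difference of the copy and that of the parent was 0.06 in KO1 and 0.11 in KO2 (a description, since copies of the same parent share its value and all share the libraries). In copies with under 50% of their 35-base stretches shared, r was 0.02 in KO1 and -0.01 in KO2 (n = 343). With 50% to 75% shared it was 0.14 in KO1 and 0.26 in KO2 (n = 188), and with 75% or more it was 0.08 in KO1 and 0.20 in KO2 (n = 234).

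KO1 and KO2 were also set against each other. No transcript of the table passed limma's test (0%), and the smallest adjusted p was 0.186. At an unadjusted p under 0.05, 128 copies were higher and 36 lower in KO1 than in KO2 (15.3% and 4.31%, where the table had 12.1% and 4.32%). The median difference, KO1 minus KO2, was 0.16 in the copies and 0.12 over all transcripts. The KO1 and KO2 libraries lay on opposite sides of both control libraries for 37 copies (4.43%, against 3.79% of all transcripts), with KO1 above and KO2 below in 31 and the reverse in 6. Both KO1 libraries lay above both KO2 libraries for 281 copies (33.7%, against 33.7% of all) and below for 125 (15.0%, against 16.6% of all).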

How the data were processed

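The authors deposited 1 table of log2 values, an escaping index per Ensembl transcript in 6 libraries. CASAVA, Trimmomatic 0.38, HISAT2 2.1.0 and featureCounts, on mm10, are named per the submitters' processing notes, without settings. The values were tested as deposited, without rescaling. Simple quotients were sought after taking off each library's offset (0.5 times the smallest linear value), with numerator and denominator up to 10 and a tolerance of 1e-09.

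Transcript types, spans and hosts came from GENCODE M21, to which 68397 transcripts matched and 76 did not. Parents were found with blastn 2.17.0. Host and parent values are means over the rows of the gene. The 3 groups were fitted over all 68473 transcripts with limma 3.58.1 under R 4.3.3 (a mean per group, variance trend, two-sided), and calls needed a Benjamini-Hochberg adjusted p under 0.05. On simulated data with changes of 1 or 2 units, the fit missed most of the changes put in and all of those put into copies. Far fewer transcripts were changed there than were called in KO2, which makes the adjusted threshold stricter. The simulation therefore does not measure what the fit misses in these data. A copy without a call is not shown to be unchanged. The deviations of same-numbered replicates were nearly uncorrelated across transcripts, so no block was used. Named copies were, per contrast and direction, up to 8 called copies with the smallest p whose groups did not overlap (or 5 as values only), the 3 highest and 3 lowest in control, and 2 per family. The members, lists and tests were chosen with earlier results of these data known. Alternatives were other scalings, filters, units of testing, variance settings and left-out libraries.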

Additional observations from a re-analysis of the deposited data

Results flagged for a closer look

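For 7 named copies the KO1 and KO2 libraries lay on opposite sides of both control libraries. The naming rule itself takes copies with the smallest p between KO1 and KO2. Among all copies 4.43% lay this way, against 3.79% of all transcripts. The difference between the knockouts was tested for each, and none passed (limma, adjusted p = 0.186 for each). KO1 was the higher in 4 of them. Rpl13-ps3 had an index of 1.35 and 1.91 in KO1, -1.07 and -1.07 in KO2, and 0.89 and 0.44 in control, a difference of 2.70 between KO1 and KO2, and held no simple quotient. D9Wsu149, a copy of Mrpl21 with 2 simple quotients, had -0.58 and -0.08 in KO1, -2.65 and -2.41 in KO2, and -2.10 and -1.57 in control, a difference of 2.20. Gm5131, a copy of Acadm with 4 simple quotients, had 3.76 and 3.00 in KO1, 1.26 and 1.32 in KO2, and 2.32 and 2.00 in control, a difference of 2.08. Gm7239, a copy of Set with 2 simple quotients, had 2.25 and 2.32 in KO1, 0.62 and 0.26 in KO2, and 0.85 and 1.15 in control, a difference of 1.85.

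KO2 was the higher in the other 3. Gm9260, a copy of the ornithine decarboxylase gene Odc1 with 1 simple quotient, had 2.04 and 1.95 in KO1, 4.21 and 3.81 in KO2, and 2.66 and 3.17 in control, a difference of -2.01. Gm32526, a copy of Ddx5 with 5 simple quotients, had -1.41 and -1.90 in KO1, -0.15 and 0.22 in KO2, and -0.58 and -0.99 in control, a difference of -1.69. Gm15937, on the strand of a Ttc33 intron and with 1 simple quotient, had -0.95 and -0.86 in KO1, 0.50 and 0.90 in KO2, and -0.09 and 0.00 in control, a difference of -1.61.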

How the results depend on the processing

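The 27 copies called in KO2 and the 31 in the average of both knockouts depended on the fit (limma throughout). Both counts became 0 with each library centred on its median, with quantile normalization and with the replicate block. So did the counts over all transcripts, which were 7156 in KO2 and 6193 in the average, so this loss was not particular to the copies. With only the libraries compared, the KO2 count was also 0, in the copies and over all transcripts. At an unadjusted p under 0.05, KO2 then had 118 copies higher and 37 lower after centring, and 41 higher and 107 lower with the block. The counts were 14 and 19 without transcripts that had a simple quotient, 8 and 12 without the 25% of transcripts lowest by mean index, and 15 and 15 with gene averages, for KO2 and the average, all with fewer copies or genes tested. In the same order, all transcripts or genes had 8554 and 7525 calls of 62325, 7017 and 6512 of 51354, and 1225 and 1038 of 17349. With both knockouts as 1 group the average had 13 copies called, and 2754 of all 68473 transcripts. Neither total of called copies moved by over 1.5 times with 1 added to the ratio, with identical transcripts taken once or without a variance trend. With 1 added, the copies called higher in the average were 7 instead of 11. No KO1 call arose under any alternative, and no named copy changed direction at a called value. Deviations of same-numbered replicates had correlations of -0.01 to 0.01 between groups over all transcripts and -0.01 to 0.04 over the copies. These gave no sign of pairing, but a shift common to all transcripts would not show in them. The median index was 0.88 in KO1, 0.67 in KO2 and 0.80 in control without simple quotients, 0.49 in KO1, 0.29 in KO2 and 0.41 in control without copies inside another gene, and -2.69 in KO1, -2.76 in KO2 and -2.96 in control after centring. The share with a simple quotient was 45.7% with limits of 5 and 75.3% with 20. Read depth is unknown and limits every value above.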
